A study of Homo sapiens with 8 samples.

Results

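The loci examined here are the smooth muscle contractile genes ACTA2, TAGLN, MYH11 and CNN1, their transcriptional coactivator gene MYOCD, and the long non-coding RNA gene CARMN with its microRNAs MIR143 and MIR145. The regions described are those in the hg19 span of each gene plus 50 kb on each side. The spans are chr5:148760000-148815000 for CARMN with both microRNAs, chr10:90694831-90751154 for ACTA2, chr11:117070037-117075052 for TAGLN, chr16:15796992-15950890 for MYH11, chr19:11649579-11661138 for CNN1 and chr17:12569207-12670651 for MYOCD. These comprised 90 of the 146099 regions made by merging the peaks of all days, or 281 of 411408 deposited peaks. By locus there were 30 regions at CARMN, 7 at ACTA2, 12 at TAGLN, 24 at MYH11, 15 at CNN1 and 2 at MYOCD. The regions were chosen by the presence of a peak in the lists, and the loci with earlier peak counts in view, so their counts are given as a description with no test.

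Open chromatin was mapped by ATAC-seq, which uses a transposase that inserts sequencing adapters where DNA is exposed, in G401, a cell line derived from a malignant rhabdoid tumour of the kidney. These cells have lost SMARCB1, part of the SWI/SNF complex that moves nucleosomes, and the stable derivative used here re-expresses it under doxycycline. The groups are uninduced cells (day 0, labelled SMARCB1 -/-) and cells after 1, 3 and 7 days of doxycycline at 1 µg/ml (labelled SMARCB1 +/+), with 2 samples each. All come from 1 engineered line kept in serum free of tetracycline, and no group with the drug but without SMARCB1 is used here, so effects of the drug and of SMARCB1 cannot be told apart. Deposited values are 1 peak list per day, with none per sample, so differences between days are given without a p-value and without an error over replicates. The day 0 list carries a name that the labels do not spell out and was assigned by elimination. An ATAC summit also cannot tell a site open in fewer cells from a site opened less in each cell.

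Smooth muscle cells contract through a smooth muscle actin and myosin apparatus, and the genes for it are switched on together by serum response factor, which binds the DNA element called the CArG box. Myocardin, the product of MYOCD, joins serum response factor there and is best known for driving this programme in smooth and cardiac muscle. CARMN is the host transcript of MIR143 and MIR145, microRNAs abundant in smooth muscle that help keep its cells in the contractile state.

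The mature microRNAs of the CARMN locus are shown because they are among its gene products and most gains lay at this locus. No gain was placed relative to their hairpins. Sequences are from RefSeq (GRCh38.p14, plus strand of chromosome 5), 5′ to 3′, and capitals mark the seed, bases 2 to 8, by which a microRNA pairs with its targets. Both hairpins were found in the table.
hsa-miR-143-3p: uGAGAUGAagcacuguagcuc
hsa-miR-143-5p: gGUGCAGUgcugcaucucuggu
hsa-miR-145-5p: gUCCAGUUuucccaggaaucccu
hsa-miR-145-3p: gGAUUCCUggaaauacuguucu
The 4 seeds differ from each other. Only that of miR-143-3p recurs among the 2545 mature sequences of the table, in 2 others, hsa-miR-4770 and hsa-miR-6088. In GRCh38 the MIR143 and MIR145 hairpins start 22.1 and 23.8 kb after the start of CARMN, a gene of 26.0 kb, and lie 1728 bp apart. IL17B, a cytokine gene of 29.9 kb, ends 2.64 kb before CARMN starts. The CARMN span used here is 55.0 kb wide in hg19, so it reaches beyond CARMN, and neither the start of CARMN nor the hairpins were placed in hg19.

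Promoter sequences were at hand for 3 of the 6 genes, CARMN, ACTA2 and CNN1. Those of ACTA2 and CNN1 are shown because the data bear on accessibility at these starts: CNN1 had a peak at its start on every day, and ACTA2 had a peak of low summit near its outer start and none over most of its span. Each is the 250 bases before an annotated start, from RefSeq (GRCh38.p14), 5′ to 3′ along the gene, with motif matches in capitals.
ACTA2 outer start, chr10:88991338-88991587, minus strand: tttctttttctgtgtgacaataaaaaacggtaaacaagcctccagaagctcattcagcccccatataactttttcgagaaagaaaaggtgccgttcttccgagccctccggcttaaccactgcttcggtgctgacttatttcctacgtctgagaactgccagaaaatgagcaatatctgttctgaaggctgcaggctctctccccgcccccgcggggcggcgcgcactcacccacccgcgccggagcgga
ACTA2 inner start, chr10:88952774-88953023, minus strand: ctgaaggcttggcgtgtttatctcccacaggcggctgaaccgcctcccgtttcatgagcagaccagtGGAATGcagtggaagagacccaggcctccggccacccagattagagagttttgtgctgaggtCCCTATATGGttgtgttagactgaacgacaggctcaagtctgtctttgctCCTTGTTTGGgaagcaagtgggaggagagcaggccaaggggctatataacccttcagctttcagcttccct
CNN1, chr19:11538601-11538850, plus strand: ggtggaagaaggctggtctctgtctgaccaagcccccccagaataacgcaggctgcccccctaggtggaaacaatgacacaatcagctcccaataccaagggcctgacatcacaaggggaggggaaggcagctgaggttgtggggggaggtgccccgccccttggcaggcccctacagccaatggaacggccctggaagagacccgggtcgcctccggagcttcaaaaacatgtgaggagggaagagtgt
Motifs were searched on both strands and did not overlap: the CArG box, the same box with 1 of its middle 6 letters not A or T, the AP-1 motif TGANTCA and the MCAT element GGAATG. Positions are counted from the start, with -1 the base before it. The inner ACTA2 window held CCCTATATGG at -121 to -112 and CCTTGTTTGG at -71 to -62, both of the relaxed box. It also held GGAATG at -183 to -178. The outer ACTA2 window and the CNN1 and CARMN windows held none of the 4 motifs. Of 35116 such windows, 1.16% held a CArG box, 5.96% the relaxed box, 6.57% TGANTCA and 11.9% GGAATG.

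Depth was similar between days. The genome-wide background, the most common background that the peaks of a list were set against, was 6.34, 6.04, 6.73 and 6.10 reads on days 0, 1, 3 and 7. The height of a peak is given as the reads at its summit, recovered from the deposited fold and p-value, and as a scaled summit, those reads divided by the genome-wide background of the list. Median summits over all peaks held 57, 51, 52 and 48 reads on these days. The lists were not equally strict: their lowest Poisson −log10 p-value was 4.25, 3.72, 3.64 and 3.88 on days 0, 1, 3 and 7. A weak site of equal strength could thus be called on an induced day and missed on day 0. In all 6 loci and all 4 lists the peak numbers ran without a gap, so no numbered peak was missing there. Peaks dropped before the numbering would not show.

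**Figure D1:**
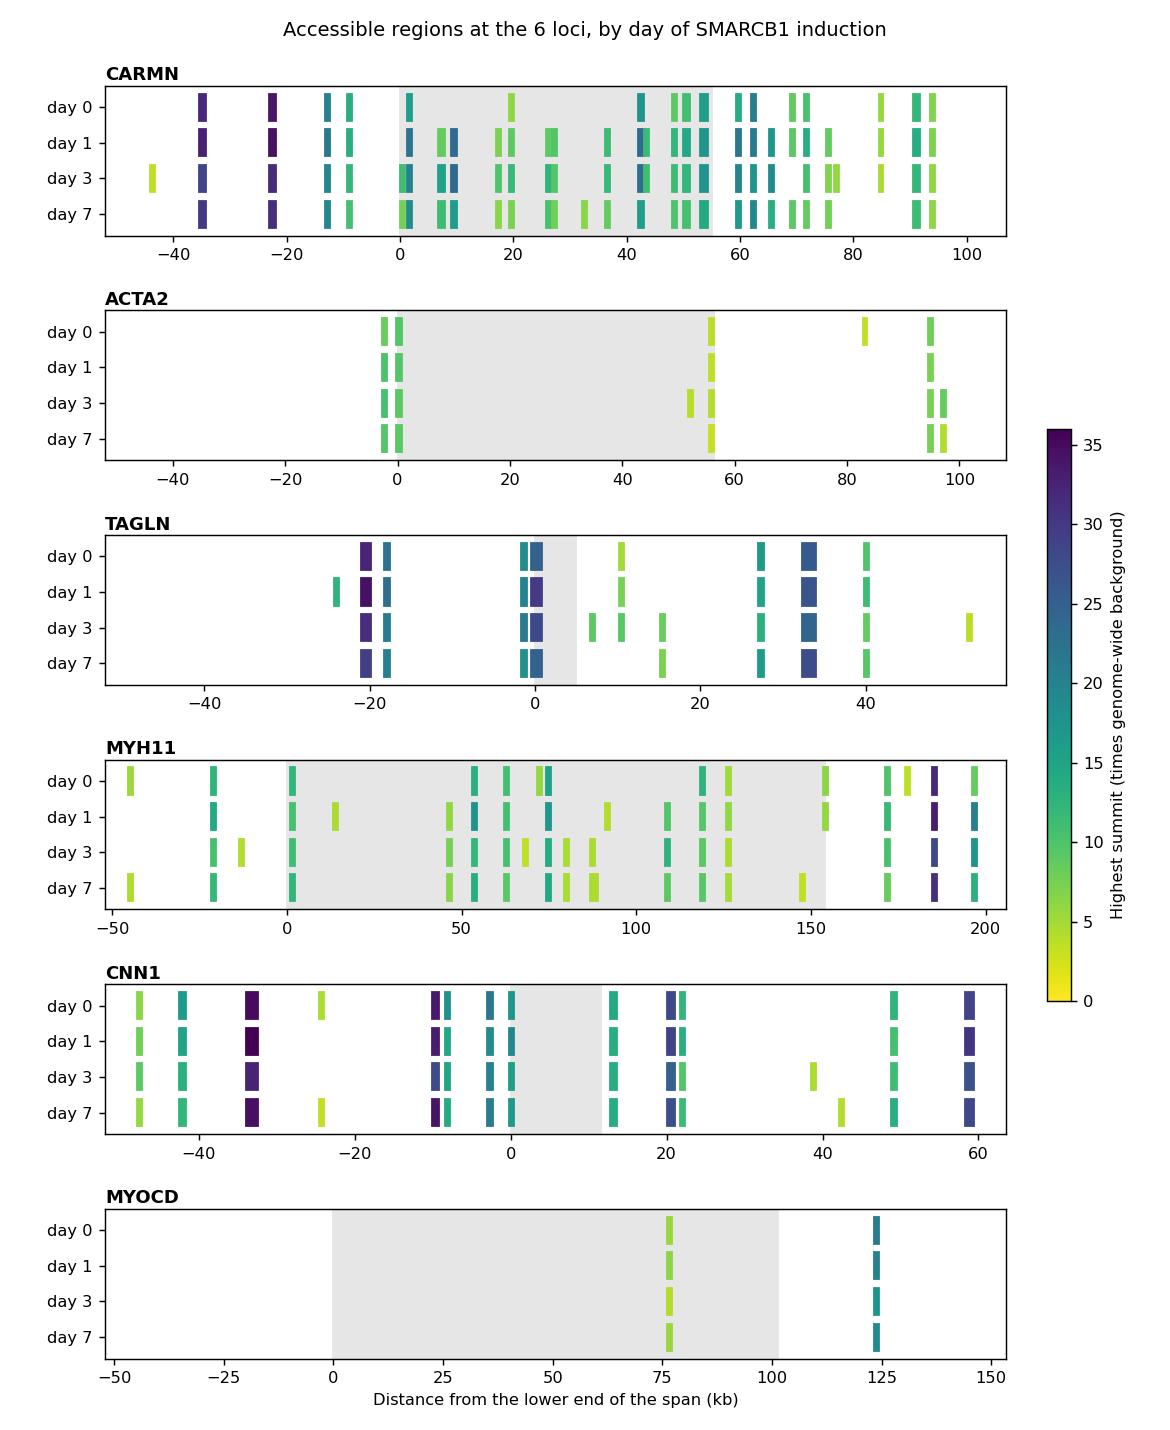
Each panel is 1 locus with its flanks, each row a day, and each block an accessible region, placed by its distance in kb from the lower end of the span (grey) and coloured by its scaled summit. Narrow regions are drawn wider than they are so that they can be seen. CARMN held 30 regions and gained blocks inside its span after day 0, while MYOCD held 2 regions.

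The CARMN locus was the most crowded and took most of the gains. It held 19.4 regions per 100 kb, against 13.4 at CNN1, 11.4 at TAGLN, 9.45 at MYH11, 4.48 at ACTA2 and 0.993 at MYOCD. Its neighbouring regions lay a median of 3.28 kb apart, against 6.62 kb over the genome. At CARMN 8 of the 30 regions were gained, meaning absent from the day 0 list and present on days 1, 3 and 7, which is 26.7%, against 13.1% of all merged regions. MYH11 had 2 such gains among 24 regions, and ACTA2, TAGLN, CNN1 and MYOCD had 0. Over the 90 regions the share was 11.1%, close to that of the genome.

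Counted by day, CARMN did not stand out in new peaks. Peaks that overlapped no day 0 peak were 10 of 27 at CARMN on day 1 (37.0%), 12 of 29 on day 3 (41.4%) and 11 of 28 on day 7 (39.3%). Over the genome these shares were 36.6%, 41.8% and 35.6%. The 5 other loci together were lower, with 5 of 42 (11.9%), 12 of 49 (24.5%) and 9 of 46 (19.6%). Of the 13 CARMN regions with no day 0 peak, 8 were those seen on all 3 induced days, 3 were seen on 1 induced day, 1 on days 1 and 3 alone and 1 on days 3 and 7 alone. At the 50 kb limit, the last CARMN region counted above the span, at 38.6 kb, held 43, 43, 41 and 37 reads on days 0, 1, 3 and 7. The first one left out, at 50.1 kb, held 108, 113, 128 and 112.

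Within the CARMN span the number of peaks was 7, 13, 15 and 16 on days 0, 1, 3 and 7. With the flanks, the counts were 18, 27, 29 and 28 and the peaks covered 11.3, 15.6, 18.9 and 15.0 kb. Of the 8 gains 6 lay inside the span. The flank below it held 4 regions open on every day and 1 other, seen on day 3 with 24 summit reads. IL17B and PCYOX1L lie on this side of CARMN in GRCh38. The span is wider than CARMN, and IL17B ends 2.64 kb before CARMN starts, so the span may also hold part of IL17B. Regions within the span, gains included, therefore need not belong to CARMN.

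The highest of the gains lay at chr5:148768975-148770058 (hg19), inside the CARMN span and 9.52 kb from its lower end. It had no day 0 peak and 143, 160 and 100 reads at the summit on days 1, 3 and 7. These scaled summits of 23.7, 23.8 and 16.4 stood above 88.2%, 91.8% and 81.2% of all peaks of their lists. It was 821, 1084 and 724 bp wide. At the local background of the nearest day 0 peak, 7.84 kb away, about 35 reads would have passed the day 0 limit. The day 0 peak on its other side gave a lower limit of 23 reads. After scaling for depth, the summits were 4.29, 4.31 and 2.97 times the 35 reads on days 1, 3 and 7. The limit is an estimate: the local background at the site on day 0 is unknown, and a summit above it could still have been too narrow to be called.

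The next gain, at chr5:148766678-148767916, lay just below it. Its summit held 51, 103 and 68 reads on days 1, 3 and 7, and its width was 233, 1239 and 1044 bp. Day 3 was 1.81 times day 1 (1.29 to 2.59), where the 95% interval here and below covers the counting error of reads only and is the exact conditional binomial one.

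In the middle of the span a pair of gains lay next to each other, at chr5:148785802-148786512 and chr5:148786945-148787625. The first of them had 54, 85 and 64 summit reads on days 1, 3 and 7. The second had 59, 65 and 48. Over the induced days they were at 2.17 to 3.49 times the day 0 limit of 23 reads estimated from the nearest day 0 peak, which lies below them. The day 0 peak on their other side gave a limit of 45 reads, and against it they were at 1.11 to 1.78 times. Smaller gains in the span were chr5:148777124-148777550, with 43, 67 and 39 reads, and chr5:148796439-148796937, with 69, 79 and 53 reads. The region at 148777124 was at 1.76 to 2.75 times the limit of 23 reads from its nearest day 0 peak. Against the 35 reads of the other side it was at 1.16 to 1.81 times. The region at 148796439 was at 1.22 to 1.66 times the 45 reads from its nearest day 0 peak.

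Beyond the upper end of the span, chr5:148825297-148825886 had 104, 126 and 82 reads on days 1, 3 and 7, and chr5:148835299-148835838 had 52, 47 and 47. The region at 148835299 was at 1.03 to 1.27 times the estimated day 0 limit of 43 reads, so a day 0 summit only slightly lower would not have been called. It was highest on day 1, at 8.61 scaled units against 6.99 on day 3, but day 3 was 0.812 of day 1 (0.536 to 1.23), within counting error.

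Day 3 was the highest of the induced days at 6 of the 8 CARMN gains, against 58.5% of the 19074 such regions of the genome. Their median scaled summit was 9.35, 12.2 and 9.59 on days 1, 3 and 7, where all such regions of the genome had 6.62, 8.03 and 6.39. Day 7 stood at a median of 0.734 of day 3, against 0.827 over the genome. The scaled local background at the 8 CARMN gains lay between 1.93 and 5.22 over the induced days. All such regions of the genome had medians of 1.40, 1.59 and 1.44 on days 1, 3 and 7. A higher local background raises the summit needed for a call, and its part in the height of these gains was not tested. At chr5:148768975-148770058 day 7 was 0.689 of day 3 (0.531 to 0.890), and at chr5:148825297-148825886 it was 0.717 (0.537 to 0.955).

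The deposited fold divides a summit by the background around it. By this measure the highest gain had folds of 6.16, 4.60 and 4.56, and the other 7 lay between 2.18 and 3.82. The genome median of such gains was 3.83, 4.27 and 3.77 on these days. At the 6 regions of the span open on every day the local background was a median of 3.33, 4.27, 5.13 and 4.17 times the genome-wide background on days 0, 1, 3 and 7, and ranged between 1.47 and 3.79 on day 0. At the 9 such regions in the flanks it was 3.04, 3.06, 2.70 and 2.68. The median background around these summits was thus higher on each induced day than on day 0 within the span, and not in the flanks on days 3 and 7.

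**Figure D2:**
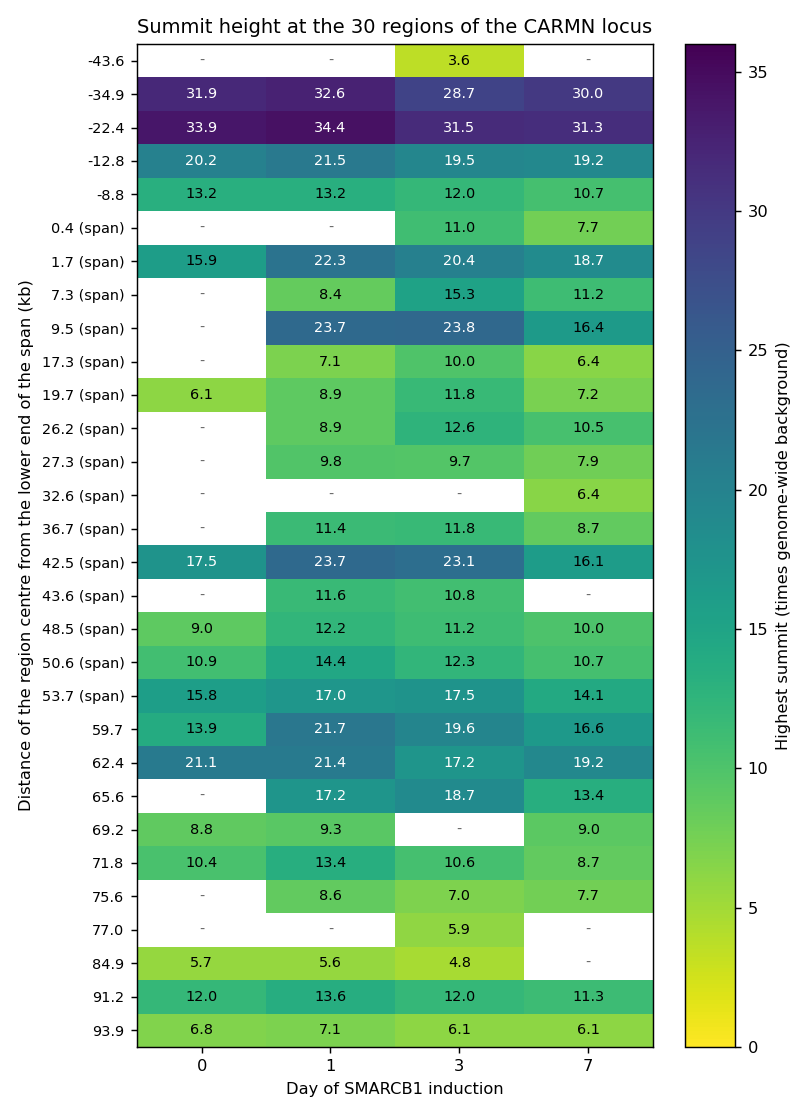
Rows are the 30 regions of the CARMN locus in genome order, labelled by distance in kb from the lower end of the span. Columns are days, and each cell gives the scaled summit (times the genome-wide background), with a dash where no peak was called. The row at 9.5 kb goes to 23.7 on day 1 with no peak on day 0, and the 4 rows below the span with a day 0 value stay near it.

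Regions of the CARMN span that were open on every day had higher scaled summits on days 1 and 3 than on day 0, but not higher folds on day 3. By scaled summit all 6 had a ratio to day 0 above 1 on day 1, between 1.08 and 1.45 with a median of 1.35. All 6 did again on day 3, between 1.11 and 1.91 with a median of 1.26, and 3 of 6 did on day 7, with a median of 1.04. By fold 4, 2 and 0 of the 6 were above day 0 on days 1, 3 and 7, and the median ratios were 1.04, 0.827 and 0.847. In the flanks the median ratio was 1.05, 0.930 and 0.924 by scaled summit and 1.09, 1.04 and 1.01 by fold. Of the 9 flank regions 8, 3 and 1 had a scaled summit above that of day 0. The genome median ratio by scaled summit was 1.06, 0.943 and 0.972. The share of the genome's regions with a ratio above 1 was not computed. The largest day 3 ratio was at chr5:148779269-148780163, with 39, 54, 79 and 44 summit reads on days 0, 1, 3 and 7. This day 3 summit was 1.91 times day 0 (1.29 to 2.88), and the fold was 1.01 times day 0. Its scaled local background was 2.91 on day 3, against 1.47 on day 0.

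Day 1 intervals above 1 were seen at 3 of the 15 CARMN regions open on every day. Over the 6 loci they were seen at 4 of 50 such regions. The share over the genome was not computed, so these sites are given as a description. At chr5:148761333-148762003 day 1 was 1.40 times day 0 (1.08 to 1.83), and at chr5:148801935-148803054 it was 1.35 times (1.05 to 1.75). By fold these were 1.15 and 1.03 times day 0. In the flank above, chr5:148819430-148819953 had a day 1 ratio of 1.56 (1.18 to 2.07) and a day 3 ratio of 1.41 (1.07 to 1.87). That site was higher by fold too, at 1.33 and 1.37 times day 0. The highest summit of the locus, at chr5:148736929-148738192 in the flank below, held 215, 208, 212 and 191 reads on days 0, 1, 3 and 7, and its 3 intervals include 1.

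No CARMN region was seen on day 0 alone, against 4.26% of all merged regions. All 18 of its day 0 peaks were met by a day 1 peak, while day 3 missed 1 of them and day 7 missed 2. Over the genome 13.0%, 14.6% and 17.5% of day 0 peaks were missed by the lists of days 1, 3 and 7.

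The actin, myosin and actin-binding genes had fewer gains. Peaks at or near their annotated starts covered the start itself in every list at TAGLN and CNN1. They covered it on day 3 alone at ACTA2 and on day 0 alone at MYH11. These peaks differed in scaled summit: high on every day at TAGLN and CNN1 and low on every day near the outer ACTA2 start. At MYH11 they were called on days 0 and 1 alone. This order does not hold by fold, which on day 0 was 3.34 at TAGLN, 3.58 at CNN1, 3.40 at ACTA2 and 3.16 at MYH11, against a median of 3.81 over the day 0 list. The scaled local background on day 0 was 7.34, 4.68, 1.00 and 1.89 at these starts.

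TAGLN encodes transgelin, an actin cross-linking protein that is among the earliest markers of smooth muscle. Its start was covered in all 4 lists by the region chr11:117069526-117070846. The summit there held 158, 180, 189 and 152 reads on days 0, 1, 3 and 7. These scaled summits of 24.9, 29.8, 28.1 and 24.9 stood above 87.5%, 94.2%, 96.0% and 91.5% of peaks. Day 1 was 1.20 times day 0 (0.960 to 1.49) and day 3 was 1.13 times (0.908 to 1.40), and both intervals include 1. Its folds were 3.34, 3.69, 3.64 and 3.33, below the list medians of 3.81, 3.83, 3.77 and 3.87.

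Around TAGLN, PCSK7 overlaps the gene and PAFAH1B2, SIDT2 and RNF214 lie nearby in GRCh38. The locus had 0 sustained gains among 12 regions. Beyond the gene's upper end, chr11:117085163-117085730 appeared on days 3 and 7 with 55 and 44 reads. The site chr11:117080322-117080699 held 32, 45 and 63 reads on days 0, 1 and 3 and had no day 7 peak. The 7 regions open on every day had ratios to day 0 between 0.781 and 1.20 over days 1 and 3.

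CNN1 encodes calponin, which binds actin and restrains the myosin motor. The region over its start, chr19:11649343-11649950, held 109, 116, 106 and 101 summit reads on days 0, 1, 3 and 7, or 17.2, 19.2, 15.8 and 16.6 scaled. Its summit lay at -4, 14, -5 and 95 bases from the annotated start, where negative values are upstream. The ratios to day 0 were 1.12 (0.853 to 1.46), 0.917 (0.695 to 1.21) and 0.963 (0.728 to 1.27).

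Of the 15 CNN1 regions 12 were open on every day, which is 80.0%, against 41.6% of all merged regions. The locus is dense with other genes, among them ECSIT, ELOF1, ACP5 and the zinc finger genes ZNF653 and ZNF627. Its highest summit was in the flank, at chr19:11615603-11617166, with 222, 219, 218 and 211 reads. New here were chr19:11688307-11688622 on day 3 alone and chr19:11691829-11692142 on day 7 alone, with 31 and 25 reads.

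ACTA2 encodes the alpha actin of vascular smooth muscle. The region at its outer annotated start, chr10:90750383-90751166, was low in every list, with 24, 22, 28 and 19 summit reads on days 0, 1, 3 and 7. Only the day 3 peak covered the start itself, and the summits lay 223 to 661 bases inside the gene. Such summits exceeded only 4.90%, 3.68%, 13.3% and 0.0349% of the peaks of their lists. FAS, a death receptor gene, overlaps ACTA2 in GRCh38, so the region need not belong to ACTA2.

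Across the rest of ACTA2 no peak was called in any list between 90695564 and 90746776 on chromosome 10, which is 4.38 to 55.6 kb from the outer start. The inner start shown above lies 38.6 kb from the outer one in GRCh38. It was not placed in hg19, but a start at that distance would fall well within the stretch without peaks. At the lower end of the span, chr10:90694569-90695564 held 62, 58, 61 and 56 reads. At chr10:90791514-90792361 a peak first appeared on day 3 with 57 reads and held 26 on day 7, which is 0.503 of day 3 (0.303 to 0.813).

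MYH11 encodes the smooth muscle myosin heavy chain, the most restricted marker of mature smooth muscle, and is transcribed from the upper end of its span. The region at that end, chr16:15950876-15951508, had a peak on day 0 with 40 summit reads and on day 1 with 35, and none on days 3 and 7. Only the day 0 peak, 633 bp wide, covered the annotated start, and the day 1 peak was 239 bp wide with its summit at -195 bases from it. These were scaled summits of 6.31 and 5.79, above 32.0% and 29.1% of peaks. The estimated limit for a call was 23 reads on day 3 and 17 on day 7, taken from peaks 17.7 and 6.62 kb away. Fewer reads than that could remain there without a call. Local background was 9.96 and 6.10 reads at those peaks, but 12.0 and 11.1 at the site itself on days 0 and 1. The limits may thus be too low, and more reads could remain uncalled.

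**Figure D3:**
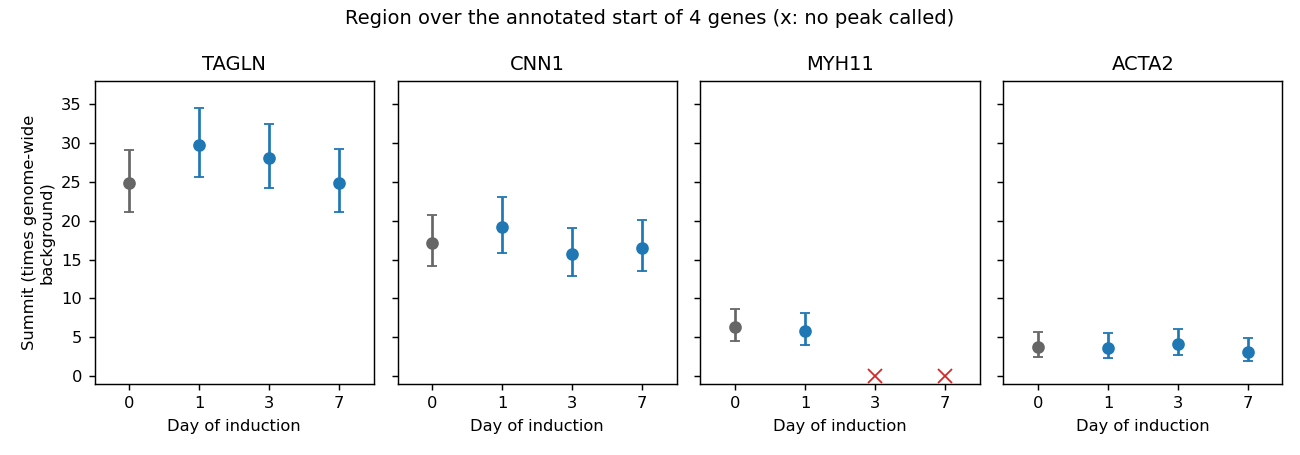
Scaled summit (times the genome-wide background) of the merged region over the annotated start of TAGLN, CNN1, MYH11 and ACTA2 (outer start) on days 0, 1, 3 and 7. Bars are exact Poisson 95% intervals for counting error. The day's own peak covered the start on day 3 alone at ACTA2 and on day 0 alone at MYH11. A cross marks a day with no peak. TAGLN lies between 24.9 and 29.8, CNN1 between 15.8 and 19.2 and ACTA2 between 3.11 and 4.16, and MYH11 has no peak on days 3 and 7.

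Within the MYH11 gene 2 regions were gained on all induced days. The stronger, chr16:15905356-15906387, lay 45.0 kb into the gene and had 59, 86 and 55 reads on days 1, 3 and 7, with folds of 5.93, 6.34 and 5.17. It was at 2.60 to 3.69 times the estimated day 0 limit of 22 reads, and at 2.12 to 3.00 times the 27 reads given by the day 0 peak on its other side. The other, chr16:15843069-15843907, had 36, 51 and 39 reads and was 1.30 to 1.66 times the limit of 29 reads. Both were highest on day 3.

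Among the regions of the 6 loci open on every day, 1 had a summit at least 2-fold above day 0. It was upstream of MYH11, at chr16:15993372-15994194 and -42.9 kb from its start. It held 54, 125, 116 and 79 reads on days 0, 1, 3 and 7. The ratios to day 0 were 2.43 (1.75 to 3.41), 2.03 (1.45 to 2.85) and 1.52 (1.06 to 2.19) in the order of days. By fold the ratios were 1.73, 1.73 and 1.62. CEP20, a centrosomal gene, lies on this side of MYH11 in GRCh38, and NDE1 overlaps MYH11, so regions within the span need not belong to MYH11. Lower summits than on day 0 were seen at chr16:15915635-15916252, within MYH11, with 81, 58, 62 and 58 reads. Its day 3 ratio was 0.722 (0.510 to 1.02).

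Of the 60786 regions of the genome open on every day, 3.89%, 4.02% and 2.22% were at least 2-fold higher on days 1, 3 and 7 than on day 0, and 0.132% at least 2-fold lower on any induced day. Among the 50 such regions of the 6 loci 1, 1 and 0 were 2-fold higher and 0 were 2-fold lower. The median ratio over the genome was 1.06, 0.943 and 0.972. CARMN had medians of 1.13, 1.01 and 0.942, and CNN1 had 1.01, 0.909 and 0.961.

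**Figure D4:**
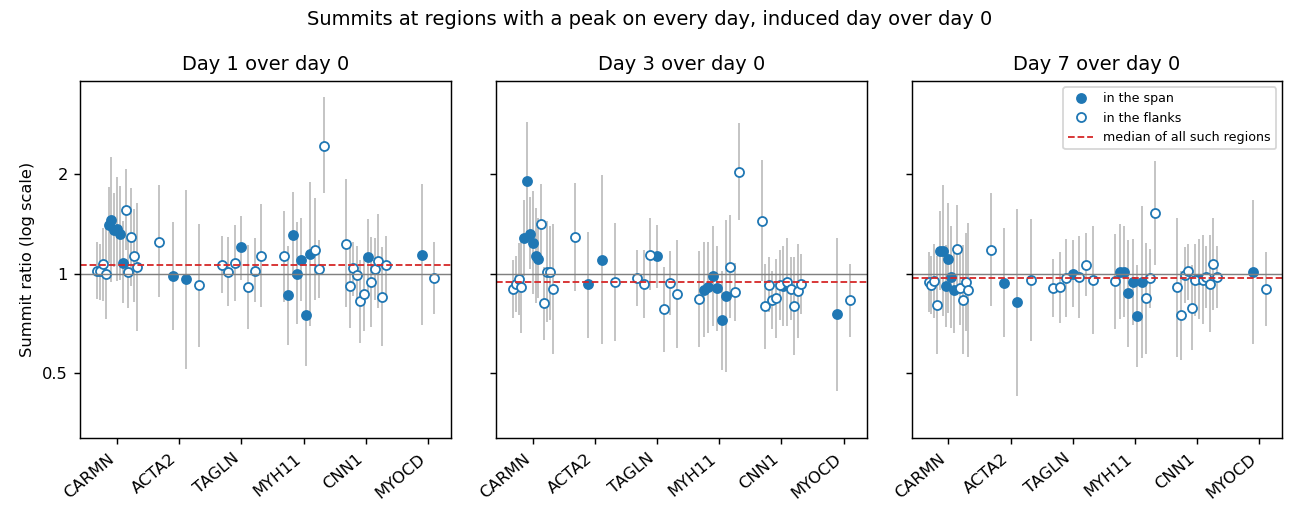
Ratio of the scaled summit on days 1, 3 and 7 to that on day 0 (log scale) at the 50 regions with a peak on every day, by locus, with exact conditional binomial 95% intervals for counting error. Filled points lie in the gene span and open points in the flanks, and the dashed line is the genome median of such regions. All 6 filled CARMN points lie above 1 on days 1 and 3 by scaled summit, where by fold 4 and 2 do, and 1 open MYH11 point lies above 2.

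MYOCD was the quietest locus. No list had a peak at its start, and the stretch from 12519207 to 12645521 on chromosome 17 was without a peak on every day. This stretch is 126 kb long, holds the start and begins at the outer edge of the 50 kb flank. Below that edge, the nearest region of any list lay 409 kb from the span. The only region in the MYOCD span was chr17:12645521-12645995, with 35, 38, 28 and 34 summit reads on days 0, 1, 3 and 7. The day 3 ratio to day 0 was 0.754 (0.442 to 1.28). The other region, chr17:12692511-12693588, lay beyond the end of the gene, on the side of ARHGAP44, and held 133, 123, 117 and 115 reads. Both were present in every list, so MYOCD had 0 new peaks and 0 lost ones on all 3 induced days.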

How the data were processed

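ATAC-seq of 8 samples, 2 per day, was made from 100000 cells per sample with paired reads of 150 bp, per the labels' protocols. Bowtie2, MACS2 2.1.1.20160309 and deepTools are named with hg19 in the submitters' processing notes. How reads were filtered or offset, and how samples were pooled into lists, was not stated there. The authors deposited 1 peak file that joins 4 lists, 1 per day, of 80744, 109876, 117606 and 103182 peaks on days 0, 1, 3 and 7. Per peak, the authors' deposited columns are a score, a fold (ratio of summit to background), the −log10 p-value and −log10 q-value, and the summit's offset (a coverage position).

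Summit reads were recovered from the authors' fold, (n + 1)/(background + 1), and Poisson p-value. All peaks (100.0%) gave a whole number within 0.005 on the −log10 scale. Peaks that overlapped by at least 1 bp across lists were merged, and the highest summit stands for a day. Scaled summits are reads over the genome-wide background of the list. Poisson and exact conditional binomial 95% intervals cover counting error only. The estimated limit for a call on a day without a peak uses the local background of the nearest peak of that day and the lowest −log10 p-value of its list.

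The members, gene lists and loci were chosen with earlier results of these data known. Regions named are those over a gene start, the gains with the highest folds, the largest and smallest day 3 ratios and the highest summit of each locus. Others are named after their values were seen. Tests planned for values per sample could not be run, as the lists hold none. Alternatives tried were other flanks, a −log10 q-value of at least 5, minimum folds of 4 and 6, a 50% reciprocal overlap and other scalings. The recovery and the ratios were tested on simulated data. Python 3.11.15, NumPy 2.4.6, pandas 2.3.3, SciPy 1.17.1 and matplotlib 3.10.9 were used. Gene names, neighbours and sequences are from RefSeq tables of GRCh38.p14, and no coordinate was converted between builds.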

Additional observations from a re-analysis of the deposited data

How the results depend on the processing

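No paired analysis was possible because the deposited lists hold 1 value per day and none per sample. Leaving out a replicate and the replicate block were not run for the same reason. Counts of peaks depended on the flank. Without flanks the 6 loci held 20, 28, 33 and 33 peaks on days 0, 1, 3 and 7, and 14 of those on day 3 were new. With flanks of 10 kb they held 31, 40, 45 and 43, with 15 new on day 3. With flanks of 100 kb they held 109 on day 1 and 120 on day 3, with 30 and 39 new peaks, and gains on all induced days were 4 at MYH11 and 2 at CNN1. Requiring a fold of at least 4 left 2, 4 and 3 new peaks on days 1, 3 and 7, and a fold of at least 6 left 1, 1 and 0. By the authors' fold, 0 regions were 2-fold higher on day 1 and 0 on day 3, and with equal medians 2 were on day 3. A −log10 q-value of at least 5 kept the counts of peaks, gained regions and new peaks in the 6 loci within 1.5 times, and so did a 50% reciprocal overlap for new peaks, where alone it was tried. Taking the higher day 0 call limit of both sides, chosen after seeing the data, left the 10 gained regions at 1.03 to 4.31 times the limit. Of 150 ratios to day 0, the authors' fold moved 10 beyond their counting interval and equal medians moved 0. Equal medians shift all ratios by the genome's median log2 change, which was 0.08, -0.08 and -0.04 on days 1, 3 and 7. Depth limits the weak regions: near the outer ACTA2 start 19 to 28 reads leave ratios between 0.426 and 1.98 within counting error.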
